A study of Mus musculus with 8 samples.

Results

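Promoter peaks of splicing factor and RNA helicase genes were followed in mouse kidney tubuloids by ATAC-seq, which maps open DNA by the insertion of sequencing adapters with the Tn5 transposase. The peaks were chosen by 2 criteria, a peak centre within 1000 bp of the transcription start site of the assigned gene and a gene symbol beginning with Srsf, Snrp, Lsm, Hnrnp, Sf3, U2af, Prpf, Rbm, Ddx or Dhx. The rule took 66 of the 6425 peaks in the deposited table, at 63 genes, and used no measured value. Another 4 peaks of such genes lay beyond 1000 bp and were left out. The groups were 4 libraries from tubuloids given myoglobin for 12 h and 4 libraries from vehicle-treated tubuloids. Both are wild type and were grown in Matrigel as primary cultures of tubular epithelial cells, started from kidney cortex. The series text gives 4 mice, but no label ties a library to a mouse. Myoglobin, the haem protein of muscle, served to injure the tubule cells. The strain, age and sex of the mice and the myoglobin dose are not given in the sources used here. No label states separate cultures either, so p-values measure the spread between these libraries, which may be technical.

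Pre-mRNA splicing is carried out by the spliceosome, which is built on each intron from small nuclear ribonucleoproteins (snRNPs). The U1 snRNP binds the 5′ splice site, U2AF and the U2 snRNP mark the 3′ end of the intron and the branch point, and the U4/U6.U5 particle then joins and is remodelled by helicases. SR proteins (Srsf) mostly promote the use of exons, hnRNP proteins (Hnrnp) often repress it, and RBM proteins hold many regulators of both kinds. DEAD-box (Ddx) and DEAH-box (Dhx) proteins use ATP to unwind RNA or strip proteins from it, and several members here act in ribosome assembly or translation and not in splicing. These genes are active in nearly every cell type, and no other tissue was measured here. Open promoters at these genes say little about cell identity. Of 17 tubule epithelium markers, Pax2, Cdh16, Cdh1, Epcam and Scnn1g had an assigned peak anywhere in the table, and 12 had none. No marker had one among 5 of endothelium, 5 of immune cells, 4 of podocytes and 5 of fibroblasts and pericytes.

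The values are scaled and rounded by the authors, with near-equal totals of 124934 to 126187 in myoglobin libraries and 124415 to 126782 in vehicle libraries. By the spacing of whole numbers, estimated reads inside the 6425 peaks were 123453, 82475, 67609 and 120260 in myoglobin replicates 1 to 4. In vehicle replicates 1 to 4 they were 166330, 200519, 130568 and 171209. Depth here means these reads in peaks. Reads outside the peaks are not given, so total sequencing depth and the share of reads in peaks are not known. The depth of the myoglobin libraries averaged 0.589 times that of the vehicle libraries, and every myoglobin library was shallower. A two-sided exact permutation test gave p = 0.0286, the smallest that 70 assignments can give, so depth and treatment cannot be told apart. Myoglobin replicates 2 and 3 were the shallowest. A member peak held a median of 149.5 estimated reads over all 8 libraries, with a range of 30 to 353.

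The sequences below show, for 7 members, the part of the peak that lay inside the RefSeq promoter window and upstream of the RefSeq start site, 5′ to 3′ on the strand of the gene. U2af1, Hnrnpu, Hnrnpa3 and Ddx42 are shown because they are 4 of the 7 members with an unadjusted limma p under 0.05. Hnrnpc is the tallest member peak, and Srsf2 and Srsf3 are the SR protein promoters in whose windows the exact letters TATAAA were found. The build is GRCm38.p6, which is mm10. Capitals mark the letters of motifs searched on either strand. They are CCGGAA, bound by transcription factors of the ETS family, and GGGCGG, bound by those of the SP and KLF families. CCAAT is the element of the factor NF-Y, and TGACGT is the core of the element bound by CREB and ATF proteins. GCGCATGC is part of the element of nuclear respiratory factor NRF1, and AAGATGGC is an element of the factor YY1. TATAAA is a form of the TATA box of the general transcription machinery, and other forms of that box were not searched.
U2af1, chr17:31658782-31658941, minus strand: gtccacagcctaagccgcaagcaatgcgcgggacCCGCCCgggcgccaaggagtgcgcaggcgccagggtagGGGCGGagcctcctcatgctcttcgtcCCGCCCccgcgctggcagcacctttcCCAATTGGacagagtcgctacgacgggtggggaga
Hnrnpu, chr1:178337816-178337912, minus strand: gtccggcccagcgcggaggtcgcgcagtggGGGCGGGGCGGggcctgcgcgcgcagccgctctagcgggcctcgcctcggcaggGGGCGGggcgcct
Hnrnpa3, chr2:75659009-75659258, plus strand: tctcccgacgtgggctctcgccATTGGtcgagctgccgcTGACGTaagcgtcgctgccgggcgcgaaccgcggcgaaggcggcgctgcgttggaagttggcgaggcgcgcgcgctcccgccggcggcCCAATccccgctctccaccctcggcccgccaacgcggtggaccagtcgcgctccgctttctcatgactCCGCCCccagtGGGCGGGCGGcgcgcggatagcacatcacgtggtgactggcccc
Ddx42, chr11:106216768-106216925, plus strand: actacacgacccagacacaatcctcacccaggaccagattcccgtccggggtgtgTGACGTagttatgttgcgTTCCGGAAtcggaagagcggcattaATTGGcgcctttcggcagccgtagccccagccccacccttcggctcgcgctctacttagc
Hnrnpc, chr14:52104022-52104271, minus strand: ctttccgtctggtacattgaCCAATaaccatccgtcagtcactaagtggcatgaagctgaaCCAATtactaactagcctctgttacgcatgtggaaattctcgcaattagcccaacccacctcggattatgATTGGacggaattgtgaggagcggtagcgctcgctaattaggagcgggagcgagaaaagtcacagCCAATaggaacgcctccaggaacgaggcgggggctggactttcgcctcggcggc
Srsf2, chr11:116853098-116853271, minus strand: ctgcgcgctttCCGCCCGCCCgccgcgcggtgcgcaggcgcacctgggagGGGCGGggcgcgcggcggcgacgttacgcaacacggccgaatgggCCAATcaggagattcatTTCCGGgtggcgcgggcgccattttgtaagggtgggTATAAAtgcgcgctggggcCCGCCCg
Srsf3, chr17:29032578-29032659, plus strand: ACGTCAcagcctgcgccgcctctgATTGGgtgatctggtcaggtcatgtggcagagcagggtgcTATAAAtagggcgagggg

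The U2af1 stretch held GGGCGG or its reverse complement at 3 places and a CCAAT that runs into its own reverse complement, with the first base of that CCAAT 52 bp upstream of the RefSeq start. In Ddx42, CCGGAA matched on both strands at overlapping letters, and a TGACGT lay 103 bp upstream of the start. The Hnrnpc stretch had 4 CCAAT matches and no GGGCGG, while Hnrnpu had 3 GGGCGG matches and no CCAAT. Srsf2 and Srsf3 had TATAAA beginning 29 and 18 bp upstream of the RefSeq start. A match is a description of the letters and not a binding site.

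Over the whole 300 bp windows (250 bases before the start and 50 after), 54 member promoters could be matched to the RefSeq table. The windows of Srsf1, Snrpd3, Rbm25, Prpf4b and Hnrnpa0 held no base of the member peak but are included in these shares. CCGGAA stood in 26 of them (48.1%), against 30.1% of 3048 promoters of other genes with a peak within 1000 bp and 14.9% of all 32851 promoters in the table. The longer ETS form CCGGAAGT, which contains CCGGAA, stood in 14.8% of member promoters, 8.04% of the other promoters with a peak and 3.89% of all. CCAAT was found in 63.0% of member promoters, 49.2% of the others with a peak and 37.4% of all. GGGCGG was at 70.4% in member promoters, 77.0% in the others with a peak and 35.7% in all. TGACGT stood in 20.4%, 13.7% and 7.51%, GCGCATGC in 11.1%, 6.43% and 2.71%, and TATAAA in 11.1%, 4.36% and 13.6%, in the same order. The longer CREB form TGACGTCA, which contains TGACGT, stood in 1.85% of member promoters, 4.00% of the others with a peak and 1.79% of all. The longer NRF1 element stood in 1.85%, 2.49% and 0.971%. Each 1.85% was 1 of 54 member promoters, too few to give a direction. The ZBTB33 element stood in 5.56% (3 member promoters), 1.38% and 0.466%. AAGATGGC was rare throughout, at 3.70%, 4.66% and 2.75%. Member promoters had a median GC content of 60.7% and a median observed-over-expected CpG ratio of 0.898, against 63.7% and 0.81 in the other promoters with a peak. ETS and CCAAT letters were thus more frequent in the splicing and helicase promoters than in other promoters with a peak, and GGGCGG somewhat less so; these shares were not tested.

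**Figure D1:**
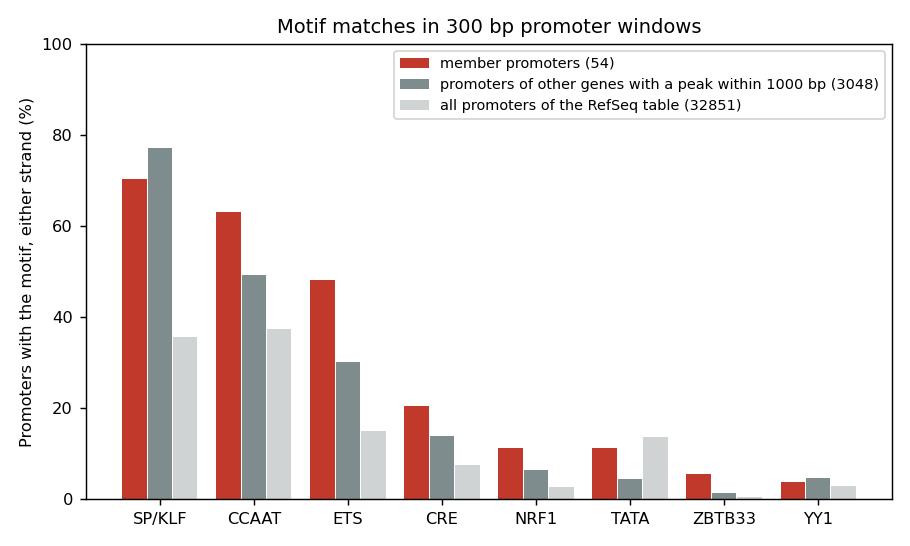
Share of 300 bp promoter windows that hold each motif on either strand, in %, for 54 splicing and helicase promoters, 3048 promoters of other genes with a peak within 1000 bp and all 32851 promoters of the RefSeq table. CCGGAA (ETS) stood in 48.1%, 30.1% and 14.9% of the windows.

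The peaks lay close to the start sites. The median distance from peak centre to start site was 91 bp, against 87.5 bp for the 4096 other peaks within 1000 bp, and 49 of 66 (74.2%) were within 200 bp, against 78.8%. The centre fell inside the gene in 24 of 66 (36.4%), against 36.2%. All 7 Snrp and Lsm peaks and all 5 Dhx peaks were within 200 bp. The Hnrnp peaks sat farther out, with a median distance of 183 bp and 10 of 13 centres upstream of the start. By the deposited starts, the farthest members were at Rbm25, 971 bp inside the gene, and at Prpf4b, 850 bp upstream. At Srsf5 a second peak lay 699 bp inside the gene. Distances use the deposited starts unless RefSeq is named, and RefSeq places the start differently at several members. The U2af1 peak centre was 30 bp inside the gene by the deposited table and upstream of the RefSeq start at 31658764. At Srsf10 and Rbm15, peaks 312 and 422 bp inside the gene by the deposited table covered the RefSeq starts at 135856071 and 107333289. The RefSeq start matched to Rbm25, 83635710, lay downstream of its peak. Exons, introns and UTRs were not annotated here.

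**Figure D2:**
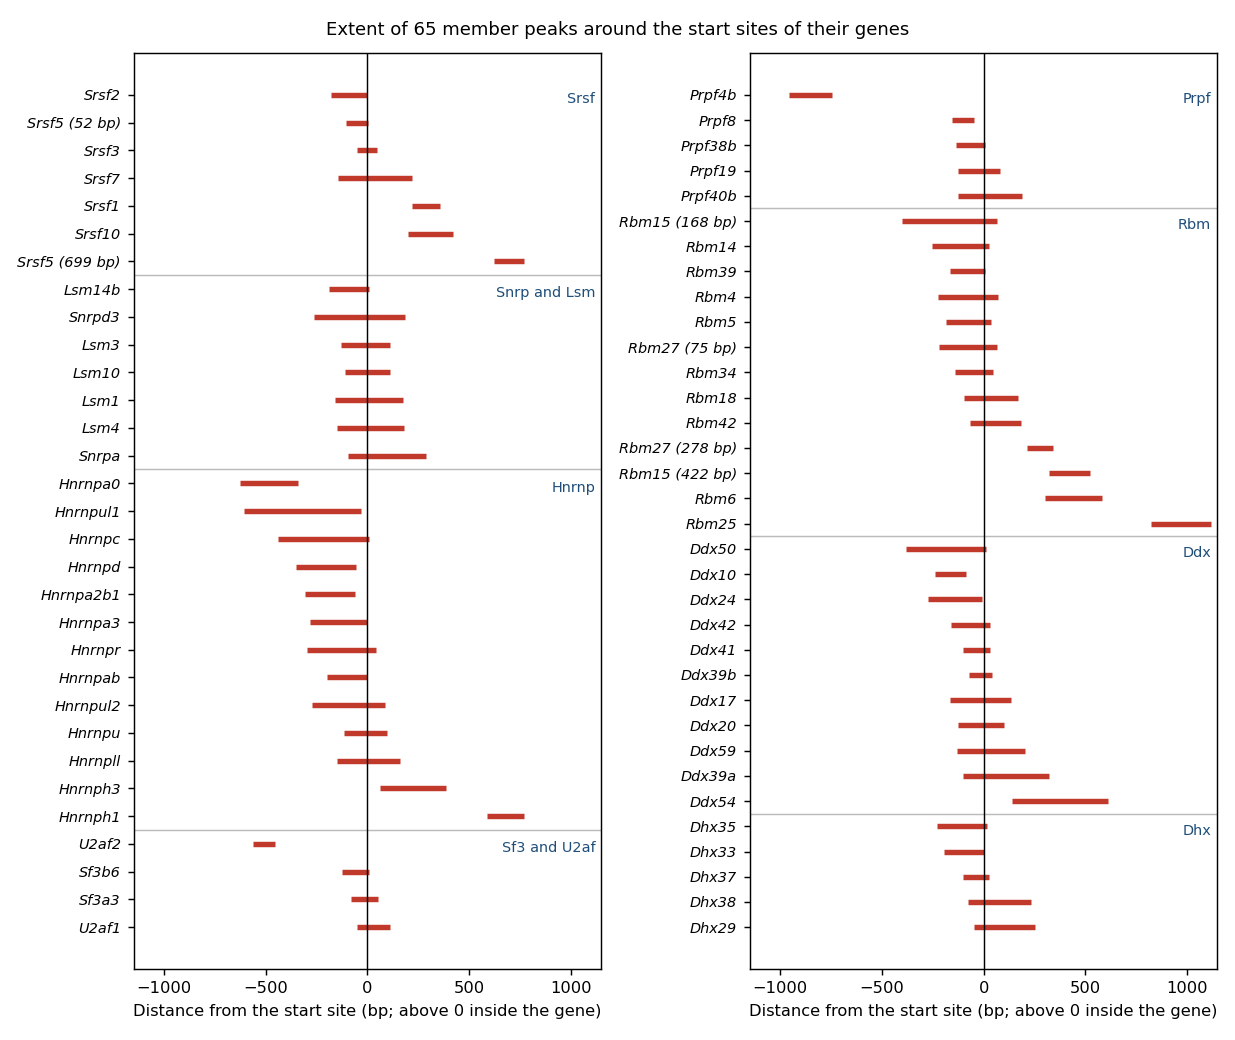
Extent of 65 member peaks in bp around the start sites of their genes in the deposited table, with values above 0 inside the gene, grouped by symbol family. Most bars cross or touch the start site, and 49 centres lie within 200 bp of it.

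In 19 of the 66 peaks (28.8%) at least 1 other gene started on the opposite strand within 1000 bp of the peak centre, against 22.2% of the other peaks near start sites. Mfsd11 faced Srsf2, Cbx3 faced Hnrnpa2b1, Txnl4b faced Dhx38, Gucd1 faced Snrpd3, Ccdc47 faced Ddx42 and Mtrex faced Dhx29. The Dhx38 peak centre was 107.5 bp from the Txnl4b start and 76 bp from that of Dhx38. A value at such a peak cannot be assigned to 1 gene of the pair.

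The member peaks were of ordinary height. Mean values over the 8 libraries ran from 3.13 to 41.4 with a median of 17.4, against a median of 17.5 for the other peaks near start sites. None reached 50, a height that 205 of those 4096 (5.00%) reached. Height followed width (Pearson's r = 0.837 across the 66 members and 0.854 across all 6425 peaks, both across peaks of the same libraries and not over replicates), so heights are compared per length. Per 100 bp of peak, the median value was 6.93 in members, 7.98 in the other peaks near start sites, 7.39 in 34 peaks at ribosomal protein genes and 7.88 in 61 peaks at zinc finger genes. The densest member was Rbm5, an RNA-binding regulator of alternative splicing, at 12.5 per 100 bp, followed by the Rbm27 peak at its start site at 11.5. The sparsest were the second Rbm27 peak at 2.50 and Hnrnpu at 3.89. Among families the median per 100 bp ran from 6.15 at Srsf to 7.62 at Rbm. Ranges within families were wider than this.

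**Figure D3:**
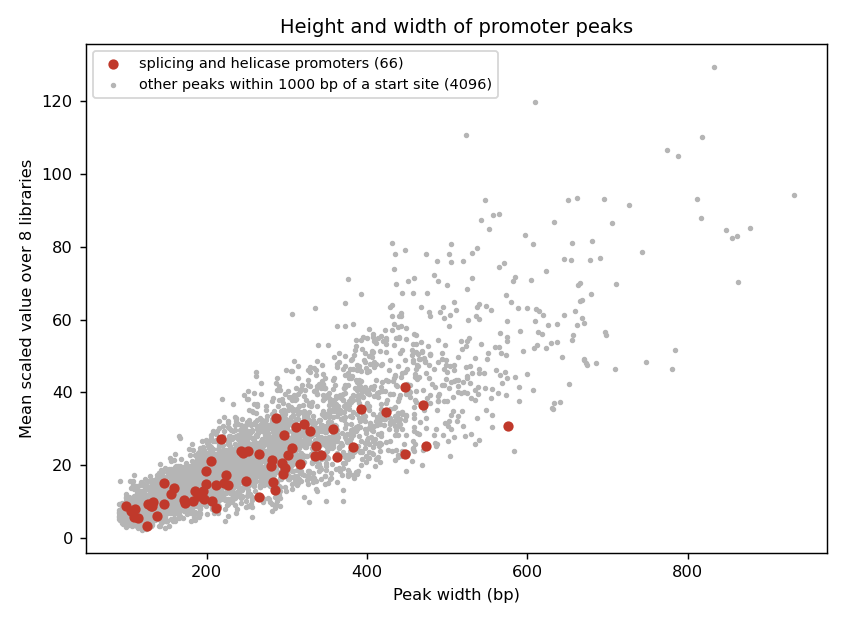
Mean scaled value over 8 libraries against peak width in bp, for the 66 splicing and helicase promoter peaks and the 4096 other peaks within 1000 bp of a start site. The members lie within the cloud of other promoter peaks, and none reaches a mean value of 50.

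The contrast asks which of these promoters became more or less accessible after 12 h of myoglobin. No member passed. By limma with Benjamini-Hochberg adjustment over all 6425 peaks, 0 of 66 member peaks were higher and 0 were lower at an adjusted p under 0.05, against 13 (0.202%) and 3 (0.0467%) of all peaks. The lowest adjusted p of a member was 0.174. At an unadjusted p under 0.05, 2 members had higher values with myoglobin (3.03%, against 3.67% of all peaks) and 5 had lower values (7.58%, against 3.92%). Groups did not overlap at 1 member that was higher with myoglobin (1.52%, against 1.45%) and at 2 that were lower (3.03%, against 1.59%). These shares rest on few peaks. The member peaks made up 0.910%, 1.02%, 0.957% and 0.970% of the total value in myoglobin replicates 1 to 4, and 0.977%, 0.989%, 0.938% and 0.964% in vehicle replicates 1 to 4, so the groups overlapped.

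Log2 differences (myoglobin minus vehicle, on log2 of the value plus 1) were above 0 at 32 members and below 0 at 34, with a median of -0.01. The median was also -0.01 in the other peaks near start sites and -0.02 in all peaks. The median standard error of a member was 0.25, so small changes at single peaks were not detectable at this depth. Members ranged from -1.43 to 1.04. The standard deviation of their differences was 0.40, against 0.31 in the other peaks near start sites with a median standard error of 0.26. In all peaks it was 0.35. The member value takes in low peaks with large differences, such as U2af2 at -1.43 (mean value 7.38), and was not tested. Between libraries of a group, the variance at member peaks was 1.11 times (myoglobin) and 1.05 times (vehicle) the counting variance of the estimated reads. The median coefficient of variation was 26.6% in myoglobin and 21.5% in vehicle libraries.

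**Figure D4:**
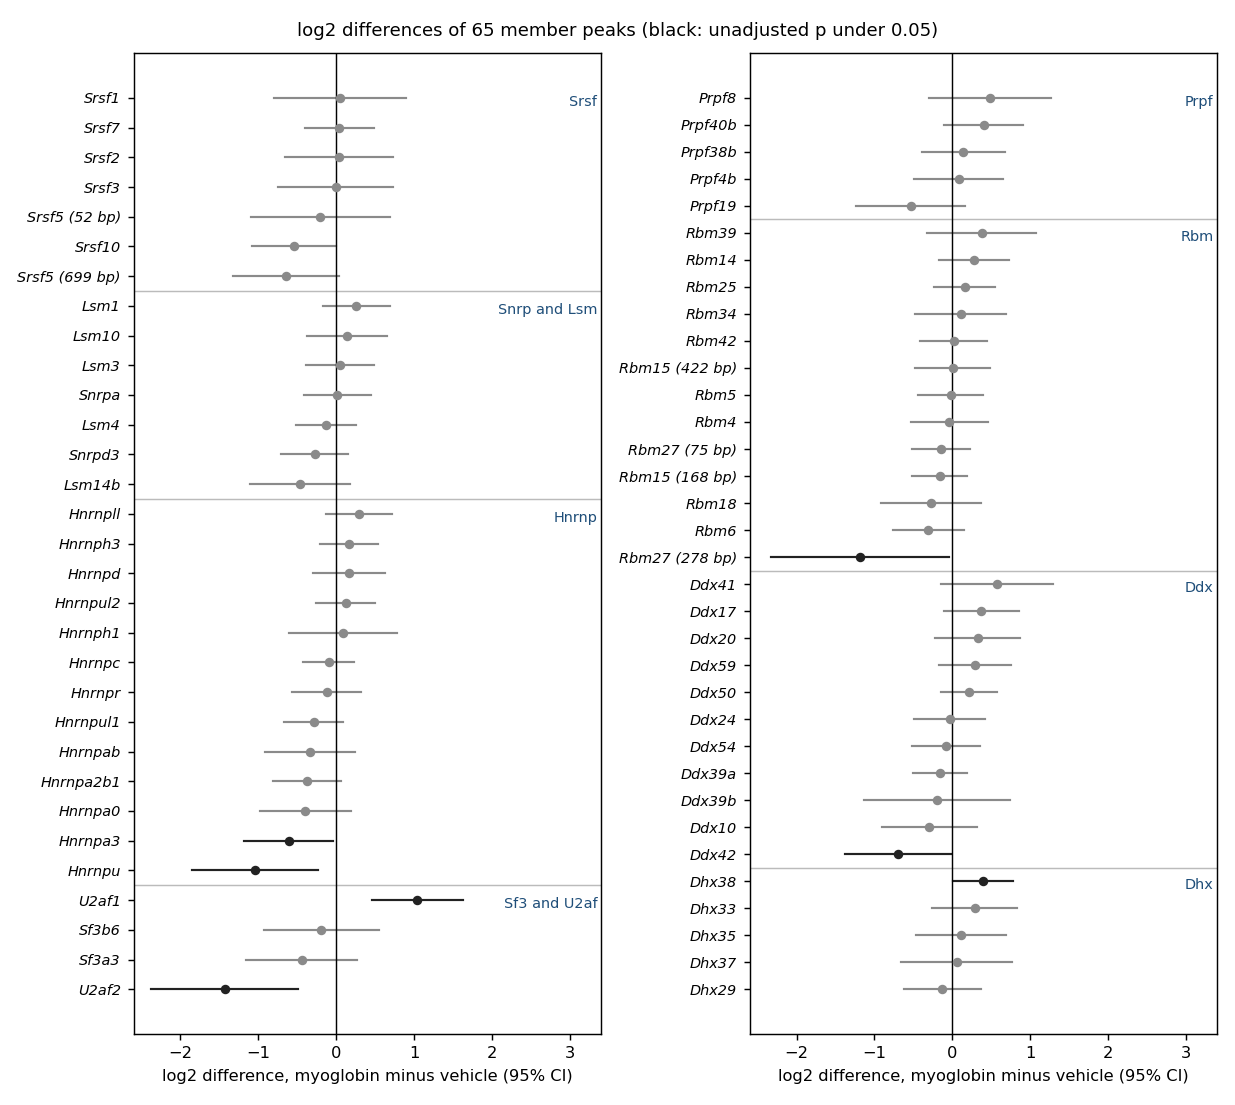
Log2 difference (myoglobin minus vehicle) with its 95% interval from limma for 65 member peaks, grouped by symbol family and ordered by size, with black for an unadjusted p under 0.05. The differences run from -1.43 at U2af2 to 1.04 at U2af1, and none passed the adjusted threshold.

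The 2 subunits of U2AF, which reads the 3′ end of introns, stood at opposite ends of the range, though neither was called. Without myoglobin replicate 3, U2af2 was at -0.77, above the second Rbm27 peak at -1.28. U2AF1 binds the AG at the 3′ splice site and U2AF2 the polypyrimidine tract before it. The U2af1 peak, shown above, had values of 14, 28, 19 and 15 in myoglobin replicates 1 to 4, against 10, 7, 7 and 10 in vehicle replicates 1 to 4. Every myoglobin library was above every vehicle library. The means were 19.0 ± 6.38 in myoglobin and 8.5 ± 1.73 in vehicle (SD, n = 4 each). The log2 difference from limma was 1.04 ± 0.30 (SE), with a 95% interval of 0.45 to 1.63. Its adjusted p was 0.174. An estimated 57 myoglobin and 45 vehicle reads gave a depth-corrected ratio of 2.15 (exact binomial 95% counting interval 1.43 to 3.25, counting error only). The 2 highest values were those of the 2 shallowest libraries, myoglobin replicates 2 and 3. The 6 deepest libraries leave both out, so the difference could only fall there. With 2 myoglobin and 4 vehicle libraries left, it was 0.72 (adjusted p = 0.603). The part of depth in this difference was not tested.

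At U2af2 the assigned peak was small and lay 509 bp upstream of the start (chr7:5061581-5061687). It had values of 3, 11, 0 and 4 in myoglobin libraries, against 6, 14, 14 and 7 in vehicle libraries. The groups overlapped through myoglobin replicate 2. An estimated 14 myoglobin and 54 vehicle reads gave a depth-corrected ratio of 0.440 (counting interval 0.226 to 0.804). The log2 difference was -1.43 ± 0.47 (adjusted p = 0.329). It rested in part on the value of 0: the difference was -0.77 without myoglobin replicate 3 and -1.96 without myoglobin replicate 2. The other members of the U2 group were Sf3a3, a subunit of SF3a, with 7, 11, 6 and 5 in myoglobin against 10, 11, 7 and 12 in vehicle libraries, and Sf3b6, the SF3b subunit at the branch point, with 4, 5, 21 and 9 against 7, 15, 7 and 10. Both overlapped between groups. Sf3b1, the largest SF3b subunit and the most often mutated, had no member peak.

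The Srsf family had 7 peaks at 6 genes and a median log2 difference of -0.00, with 3 above 0 and 4 below. Srsf7, a shuttling SR protein, had the tallest peak, with 18, 20, 30 and 23 in myoglobin against 21, 22, 24 and 20 in vehicle libraries. The lowest p belonged to Srsf10, an SR protein that represses splicing when dephosphorylated. Its peak (chr4:135855948-135856170) lay 312 bp inside the gene by the deposited start and covered the RefSeq start. The values were 10, 15, 9 and 15 in myoglobin against 22, 15, 18 and 17 in vehicle libraries. The groups touched at 15, and the log2 difference was -0.54 ± 0.27 (adjusted p = 0.649).

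Srsf5 had a peak at its start site and another 699 bp inside the gene. The inner peak had 6, 9, 6 and 7 in myoglobin against 13, 9, 13 and 11 in vehicle libraries (log2 difference -0.65 ± 0.34, adjusted p = 0.672). The peak at the start had 7, 5, 2 and 7 against 7, 6, 8 and 3, with means of 5.25 and 6. The classic SR proteins had small peaks with overlapping groups. Srsf1 had 4, 8, 4 and 9 in myoglobin against 4, 5, 5 and 10 in vehicle libraries, Srsf2 had 14, 8, 9 and 7 against 5, 14, 11 and 8, and Srsf3 had 5, 18, 9 and 5 against 7, 7, 11 and 8. The 95% interval of the log2 difference was -0.80 to 0.89 at Srsf1, -0.65 to 0.73 at Srsf2 and -0.74 to 0.73 at Srsf3.

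Snrp and Lsm genes encode the rings and specific proteins of the snRNPs and their relatives, and their 7 peaks had a median log2 difference of 0.01. Lsm4, part of the ring on U6 snRNA, was the tallest, with 33, 21, 28 and 31 in myoglobin against 27, 28, 34 and 34 in vehicle libraries. Snrpd3, a core Sm protein, had 18, 18, 24 and 23 against 26, 27, 19 and 30 (log2 difference -0.28 ± 0.22, adjusted p = 0.830). Lsm14b, a processing-body protein, had 9, 9, 7 and 10 against 15, 12, 8 and 16 (-0.46 ± 0.32, adjusted p = 0.766). In both the groups overlapped. Snrpa of the U1 snRNP averaged 24.8 in myoglobin and 25 in vehicle libraries, Lsm3 averaged 24.3 and 23.3, Lsm1 of the mRNA decay ring 28 and 22.8, and Lsm10 of the U7 snRNP, which acts on histone mRNA, 18.3 and 16.5.

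Hnrnp genes gave 13 peaks, of which 5 had a log2 difference above 0 and 8 below, with a median of -0.12. Hnrnpc, whose protein binds uridine-rich tracts and masks cryptic exons, had the tallest peak of all members, with 36, 38, 37 and 49 in myoglobin against 41, 43, 49 and 38 in vehicle libraries (log2 difference -0.10 ± 0.16, 95% interval -0.43 to 0.23). That standard error is the smallest of the 66. Hnrnpu, a nuclear matrix protein that also regulates U2 snRNP maturation, had 4, 3, 2 and 15 in myoglobin against 10, 12, 10 and 10 in vehicle libraries. Of the myoglobin libraries, 3 were below every vehicle library and 1 was above all of them. The log2 difference was -1.04 ± 0.40 (adjusted p = 0.551). It was -0.36 in the 6 deepest libraries, which leave out the 2 lowest values (myoglobin replicates 2 and 3). With 1 library left out it ran from -1.55 (myoglobin replicate 4) to -0.75 (myoglobin replicate 3).

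At Hnrnpa3, a relative of hnRNP A1, the values were 10, 23, 7 and 10 in myoglobin against 18, 15, 17 and 22 in vehicle libraries. Here too, 3 myoglobin libraries were below every vehicle library and myoglobin replicate 2 was above all of them (log2 difference -0.61 ± 0.29, adjusted p = 0.615). Hnrnpa2b1, which binds RNA with N6-methyladenosine, had 17, 24, 19 and 20 in myoglobin against 19, 29, 36 and 23 in vehicle libraries, with overlap (-0.37 ± 0.22, adjusted p = 0.716). Without vehicle replicate 3 its difference was -0.22. At Hnrnpa3 the difference was -0.93 without myoglobin replicate 2 and -0.40 without myoglobin replicate 3. The other 9 genes (Hnrnpa0, Hnrnpab, Hnrnpd, Hnrnph1, Hnrnph3, Hnrnpll, Hnrnpr, Hnrnpul1 and Hnrnpul2) overlapped between groups, with log2 differences of -0.39 at Hnrnpa0 to 0.29 at Hnrnpll. Hnrnpa1 and Hnrnpk, which were also sought, had no member peak.

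Prpf genes encode proteins of the U5 and tri-snRNP particles and their partners. Prpf8, the scaffold at the catalytic centre, had a small peak with 8, 6, 19 and 6 in myoglobin against 10, 6, 4 and 5 in vehicle libraries. Its log2 difference of 0.48 ± 0.39 became 0.13 without myoglobin replicate 3 and 0.71 without vehicle replicate 1. Prpf40b, a U1-associated protein, had 31, 31, 11 and 22 against 22, 17, 13 and 15 (0.40 ± 0.25, adjusted p = 0.741). That difference was 0.24 without myoglobin replicate 1 or 2 and 0.72 without myoglobin replicate 3. Prpf19, a ubiquitin ligase of the spliceosome, had 6, 5, 7 and 14 against 6, 16, 16 and 10 (-0.54 ± 0.35, adjusted p = 0.757). Prpf38b and Prpf4b had log2 differences of 0.14 and 0.08. All 5 of these overlapped between groups.

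Rbm genes gave 13 peaks at 11 genes, with 6 log2 differences above 0, 7 below and a median of -0.02. Rbm27, a zinc finger protein linked to nuclear RNA decay, had a strong peak at its start and a faint one 278 bp inside the gene (chr18:42275568-42275693). The faint peak had 1, 2, 2 and 1 in myoglobin against 3, 7, 4 and 5 in vehicle libraries, without overlap. Its log2 difference was -1.18 ± 0.57 (adjusted p = 0.633) and rested on an estimated 4 myoglobin and 26 vehicle reads, a depth-corrected ratio of 0.261 (counting interval 0.0663 to 0.753). The strong peak had 35, 29, 37 and 24 in myoglobin against 41, 34, 29 and 34 in vehicle libraries, with means of 31.3 and 34.5.

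Rbm6, a neighbour of Rbm5 on chromosome 9 and like it a splicing regulator, was the other member without overlap on the lower side. It had 18, 17, 17 and 18 in myoglobin against 25, 21, 23 and 19 in vehicle libraries. The difference was small (-0.31 ± 0.23, adjusted p = 0.808). Rbm5 itself had 17, 35, 34 and 24 against 27, 31, 24 and 26, with overlap. Rbm39, which is related to U2AF2 and binds the same machinery, had 18, 14, 4 and 13 against 7, 6, 13 and 8 (0.37 ± 0.35, adjusted p = 0.874). That difference was 0.15 without myoglobin replicate 1 and 0.79 without myoglobin replicate 3. Rbm15, an adaptor of the N6-methyladenosine writer complex, had 2 peaks. The taller one averaged 34.3 ± 4.99 in myoglobin and 38.5 ± 5.45 in vehicle libraries. The one 422 bp inside the gene by the deposited start averaged 18.3 ± 1.5 and 18.3 ± 2.06. Log2 differences at Rbm4, Rbm14, Rbm18, Rbm25, Rbm34 and Rbm42 ran from -0.27 at Rbm18 to 0.28 at Rbm14, all with overlap. Rbm3, a cold-shock protein, had no member peak.

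**Figure D5:**
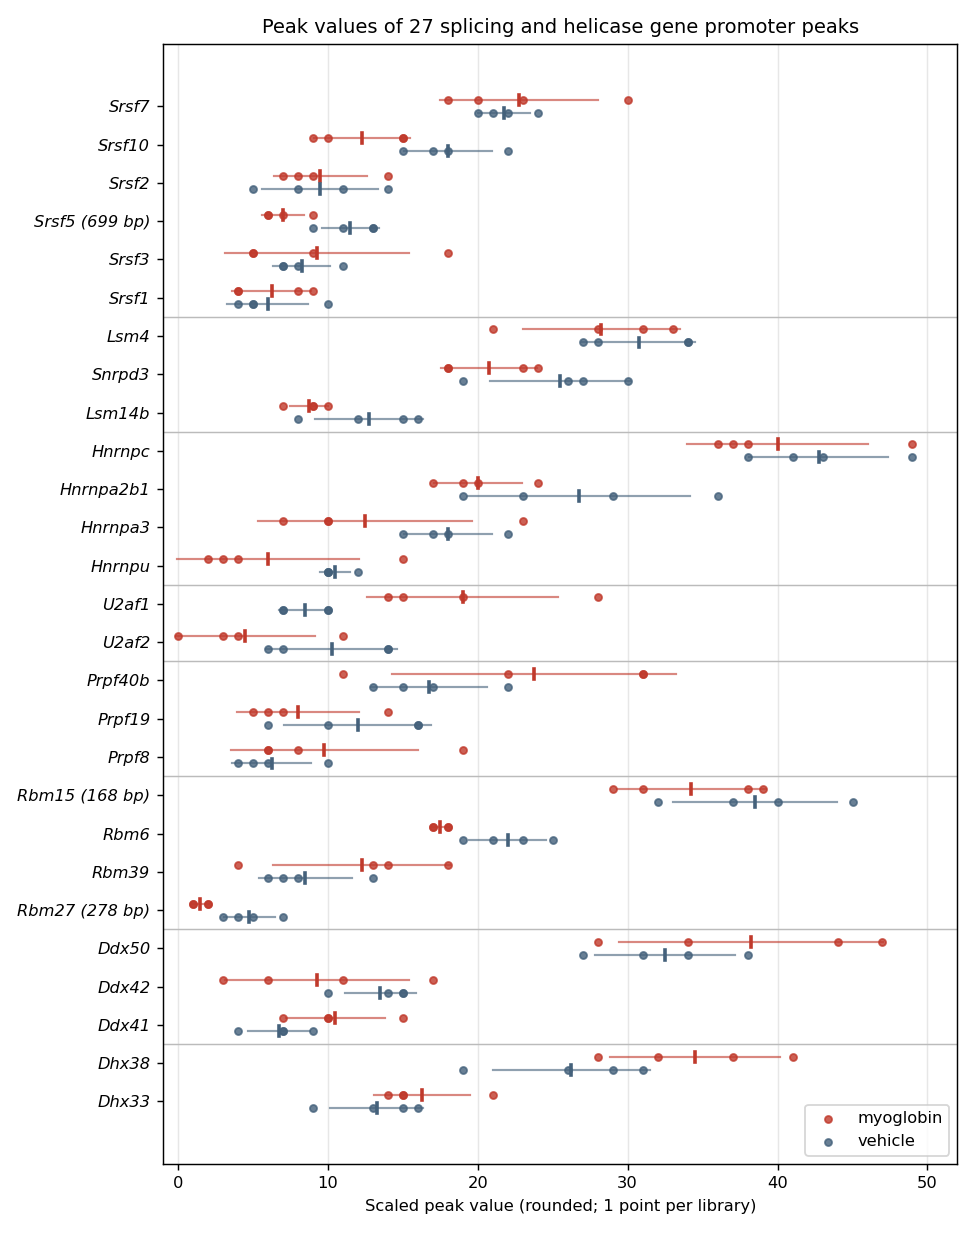
Scaled value of each library (points), group mean (tick) and SD (line) for 27 member peaks in 8 symbol families, myoglobin above vehicle in each row. The groups are apart at U2af1, Rbm6 and the Rbm27 peak 278 bp from its start, and overlap or touch at the others.

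DEAD-box genes gave 11 peaks with a median log2 difference of -0.03. Ddx42, which works with the U2 snRNP, had 17, 3, 11 and 6 in myoglobin against 15, 14, 15 and 10 in vehicle libraries (log2 difference -0.70 ± 0.34, adjusted p = 0.633). The groups overlapped, and the difference was -0.32 without myoglobin replicate 2 and -1.04 without myoglobin replicate 1. Ddx41, a helicase linked to splicing and to the sensing of foreign DNA, had 10, 15, 7 and 10 against 4, 9, 7 and 7 (0.57 ± 0.36, adjusted p = 0.742). Ddx50, a nucleolar helicase, had the tallest peak of the family, with 28, 44, 47 and 34 against 38, 27, 34 and 31 (0.21 ± 0.18). The export helicase Ddx39b and its relative Ddx39a averaged 5.5 and 32.5 in myoglobin libraries and 5.5 and 36.5 in vehicle libraries. Ddx20 of the SMN complex, which assembles snRNPs, had 12, 20, 15 and 19 against 13, 13, 12 and 13. The helicases of ribosome assembly were spread likewise: Ddx10 averaged 10.8 in myoglobin and 13.3 in vehicle libraries, Ddx24 averaged 22.5 and 23.5, and Ddx54 averaged 24.8 and 26. Ddx5, a coregulator of transcription, and Ddx3x had no member peak, while Ddx17, the close relative of Ddx5, had 21, 31, 13 and 41 against 25, 20, 16 and 15. Ddx59 had 17, 21, 39 and 23 against 26, 21, 16 and 16.

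DEAH-box genes gave 5 peaks, with 4 log2 differences above 0 and a median of 0.11. Dhx38, the helicase that remodels the spliceosome before the second step of splicing, shares its peak with the start of Txnl4b. It had 37, 41, 28 and 32 in myoglobin against 29, 19, 31 and 26 in vehicle libraries, with overlap (log2 difference 0.39 ± 0.19, adjusted p = 0.649). Dhx33, a helicase of ribosomal RNA synthesis, had 14, 21, 15 and 15 against 13, 16, 9 and 15 (0.29 ± 0.27, adjusted p = 0.877). Leaving out vehicle replicate 3 gave 0.13 at Dhx33, and leaving out vehicle replicate 2 gave 0.25 at Dhx38. Dhx29, a translation initiation factor, averaged 18.8 in myoglobin and 19.8 in vehicle libraries. Dhx35 and Dhx37 had log2 differences of 0.11 and 0.05. Dhx9 and Dhx15 had no member peak.

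Other splicing genes, whose symbols the rule does not match, gave the same count of calls. Of 98 such genes listed, 28 had a peak within 1000 bp of the start, 29 peaks in all. None was called in either direction, and 2 had an unadjusted limma p under 0.05 (6.90%, against 7.60% of all peaks). Log2 differences were above 0 at 20 and below 0 at 9, against 3025 and 3400 in all peaks. Their median was 0.07, against -0.02 in all peaks. Pcbp2, a poly(C)-binding protein, had 33, 37, 60 and 29 in myoglobin against 28, 29, 26 and 30 in vehicle libraries (adjusted p = 0.595). Clk3, a kinase of SR proteins, had 17, 17, 19 and 41 against 7, 16, 19 and 18 (adjusted p = 0.598). These 2 genes, and Tra2b, were picked after their values were seen. The groups overlapped at Pcbp2 and Clk3, and in each a single myoglobin library stood highest. Tra2b, an SR-like activator, had 26, 24, 26 and 24 against 27, 30, 32 and 30, without overlap but with an adjusted limma p of 0.839. The comparison families gave medians of -0.08 over 34 ribosomal protein peaks and -0.04 over 61 zinc finger peaks, with 0 calls in each.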

How the data were processed

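ATAC-seq of mouse kidney tubuloids was analysed from 1 deposited table with 1 column per library. The build was mm10, and DESeq2 1.36.0, featureCounts, Picard 3.0.0, STAR 2.7.10a and Trimmomatic 0.39 were used, per the submitters' processing notes; their roles, the peak caller and any shift for the Tn5 site are not given in the sources used here. The deposited values are treated as a score, because each column holds scaled values rounded to whole numbers, with numbers skipped or over-used at regular steps. The scaling factor of each column (1.01, 1.53, 1.865 and 1.04 for myoglobin replicates 1 to 4, and 0.748, 0.624, 0.971 and 0.732 for vehicle replicates 1 to 4) was estimated by likelihood over those steps and tested on simulated data. Values divided by it give estimated reads. Intervals on reads cover counting error only, since amplified reads are not independent molecules.

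The test was limma 3.58.1 in R 4.3.3 on log2(value + 1), fitted on all 6425 peaks with treatment as the only term and a variance trend. No peak was filtered out, p-values were adjusted over all peaks by Benjamini-Hochberg (threshold 0.05), and the fit was tested on simulated data. All 66 members were therefore tested. Residual degrees of freedom were 6 and prior ones 78.5, so each variance leaned on the trend over the whole table. Adding 1 shrinks the differences of low peaks, but averaging logs of uneven small values can also enlarge them. The Sf3b6 peak averaged 9.75 in both groups and had a log2 difference of -0.19. Count models were not used because the values are not counts. Deviations of libraries with the same replicate number were nearly uncorrelated (-0.01 to 0.03). The spread within groups was close to counting variance, so these correlations cannot show whether the numbers pair the libraries.

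Members and lists were chosen with earlier results of these data known. The peaks named with a test were, in each of 8 symbol families, the 2 with the smallest p and the tallest, every non-overlapping peak with p under 0.05, and those of 16 genes of a fixed list with a peak (8 had one). Other members are given by their values, and 1 member peak enters every count but is not reported here by name or drawn by itself. Promoter sequences came from a RefSeq table of GRCm38.p6, in which 54 of 63 member genes had a window. Alternatives were 3 other scalings, pseudocounts of 0.1 and 5, minimum mean values of 1, 10 and 50, leaving out single libraries, a replicate block, library weights, robust variance, a square-root scale, the 6 deepest libraries, and windows of 200 and 5000 bp.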

Additional observations from a re-analysis of the deposited data

Results flagged for a closer look

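Dixon's test was run on 58 sets of the 4 libraries of a group and picked out a single distant library in 6. Most sets were values at a named peak, and the rest were the estimated depth and the member share of the total. By chance about 1 in 20 sets is picked, here 2.9, and with small whole numbers equal values among 3 libraries flag any other value. At Hnrnpu, myoglobin replicate 4 had 15 beside 4, 3 and 2, and vehicle replicate 2 had 12 beside 3 values of 10. At Dhx33, myoglobin replicate 2 had 21 beside 14, 15 and 15. At Prpf8, myoglobin replicate 3 had 19 beside 8, 6 and 6. At Srsf1, vehicle replicate 4 had 10 beside 4, 5 and 5. At Hnrnpc, the tallest member, myoglobin replicate 4 had 49 beside 36, 38 and 37. The libraries that stood apart differed from peak to peak: over all 66 members, myoglobin replicates 1 to 4 were the highest of their group at 9, 20, 16 and 13 peaks, and the lowest at 18, 8, 20 and 12. Causes were not tested.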

How the results depend on the processing

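No member peak was called in either direction under any alternative that tested members, including the replicate block and the windows of 200 and 5000 bp. At a mean value of at least 50 no member was left to test, and the alternative without Rbms genes changes nothing, because 0 member peaks belong to them. The median log2 difference of the members stayed between -0.09 (6 deepest libraries) and 0.02. Over all peaks, 13 higher and 3 lower became 8 and 1 with a pseudocount of 0.1, and 1 and 0 at a mean value of at least 50, where fewer peaks are tested. Lower calls were 5 with a pseudocount of 5, 5 with library weights and 7 in the 6 deepest libraries. The replicate block gave 9 higher and 1 lower. Leaving out 1 library gave 7 to 13 higher and 0 to 4 lower. Without vehicle replicates 1 to 4 in turn the counts were 7, 8, 13 and 7 higher and 0, 1, 0 and 1 lower. The causes were not tested.

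Of 27 members named with a test, 21 kept their sign throughout. Srsf3 went to 0.00093 with median-ratio scaling, 0.0344 with cyclic loess, 0.0261 with a pseudocount of 5 and 0.0696 on the square-root scale. In the 6 deepest libraries, Lsm4 was at 0.0628, Ddx50 at -0.0619 and Srsf7 at -0.0883. With 1 library left out the ranges were -0.36 to 0.20 at Srsf3, -0.20 to 0.24 at Srsf2, -0.13 to 0.29 at Srsf1, -0.21 to 0.00084 at Lsm4 and -0.10 to 0.14 at Srsf7. Leaving out 1 library also moved by over 1.5 times the values of Ddx41 (0.37 to 0.73), Ddx50 (0.10 to 0.35), Prpf19 (-0.81 to -0.37), Hnrnpc (-0.20 to -0.03) and the taller Rbm15 peak (-0.25 to -0.09). Over the alternatives on a log2 scale, U2af1 lay between 0.72 and 1.16 (adjusted limma p 0.121 to 0.603) and U2af2 between -2.31 and -0.76 (0.0513 to 0.866). Depth limits low peaks most, as at Rbm27 with 30 estimated reads in all.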

Other observations

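Peaks of 4 genes with matching symbols lay more than 1000 bp from the start site and were not counted among the 66 members, though they are part of the whole table and of the 5000 bp window. The Snrpc peak, 1903 bp inside the gene of this U1 snRNP protein, had 15, 8, 11 and 14 in myoglobin against 8, 7, 6 and 7 in vehicle libraries. The Sf3b5 peak, 3014 bp from the start of a small SF3b subunit gene, had 8, 8, 7 and 5 in myoglobin against 10, 11, 10 and 10 in vehicle libraries. The groups touched at 8 in Snrpc and did not overlap in Sf3b5, with adjusted limma p of 0.649 and 0.763. The Hnrnpl peak, 2182 bp inside the gene, had 23, 18, 11 and 23 against 20, 21, 23 and 21. The Ddx19b peak, 3978 bp from the start of an mRNA export helicase gene, had 8, 9, 4 and 7 against 2, 8, 8 and 6.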
